A study of Mus musculus with 9 samples.

Results

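Exposure of C2C12 myotubes to ammonium acetate for 3 h was compared with no exposure by ATAC-seq, an assay that inserts sequencing adapters into open DNA with a transposase, so that the number of fragments over a region measures its accessibility. The comparison is described through every region that the authors listed for it, 588 of the 1832 regions that stand in any list of the series. C2C12 is a line of mouse myoblasts, and the cultures of both groups had been differentiated for 48 h in medium with 2% horse serum. One group was left untreated and the other received 10 mM ammonium acetate for 3 h, with 3 libraries per group that the labels call biological replicates. No time is given for the untreated cultures and no group received acetate alone, so ammonium, acetate and time in culture cannot be told apart. The list gives 1 result per region rather than a value for each library. Depth is therefore unknown, and replicate error is carried by the p values of the authors' edgeR test.

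Ammonia is made when amino acids and nucleotides are broken down, and skeletal muscle takes up the part that a failing liver does not clear. Muscle cells have no complete urea cycle and dispose of ammonia mainly by making glutamine. Open chromatin is found at promoters, where transcription starts, and at enhancers, which bind transcription factors at a distance, and genes that are being transcribed heavily can also be open along their bodies and past their ends.

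The list was selected on the measurement itself. All 588 regions had a raw p below 0.005 together with a difference of 1.5-fold or more. Accessibility rose at 1 of them by the adjusted threshold of 0.05, a region 2621 bp past the end of the transcription factor gene Klf2 (chr8:72324275-72325110, log2 fold change 2.02 ± 0.25, by edgeR, adjusted p = 0.00976, authors' deposited table). That is 0.000685% of the 146047 regions tested, a number recovered from the adjusted p values and their ranks. An adjusted p estimates the share of false positives among the regions with a p as small or smaller. It was 0.5 or above for 550 of the 588 regions and above 0.9 for 435 in the authors' deposited table. Below, "higher" and "lower" therefore say only whether the log2 fold change of 3 h over untreated is listed above or below 0, and a gene is named with its values and not as changed. The standard error beside a log2 fold change is approximate, taken from the authors' F statistic.

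Of the 588 regions 327 were higher, 0.224% of the regions tested, and 261 were lower, 0.179%. Higher regions made up 55.6% of the list (95% Clopper-Pearson interval 51.5 to 59.7, which covers counting error only). The smaller the p, the more of the regions were higher. At a raw p below 0.001 there were 99 higher and 58 lower regions, and below 0.0001 there were 24 and 9. The 5 regions with an edgeR adjusted p below 0.25 in the authors' deposited table were all higher. They lay at Klf2, Btg2, Fos (2 regions) and Iqcn. The Iqcn region (1.91 ± 0.28, by edgeR, adjusted p = 0.0644, authors' deposited table) lay 3305 bp from Jund. Klf2, Btg2, Fos and Jund are on the list of immediate early genes described below, so these regions do not stand for the whole list. At least a 2-fold difference was listed for 76 higher and 29 lower regions. The smallest adjusted p of a lower region was 0.338, at Tgif1, by edgeR in the authors' deposited table. Higher regions had a median log2 CPM (counts scaled to library size) of 2.45 and a median width of 552 bp, and lower regions 2.64 and 629 bp.

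**Figure D1:**
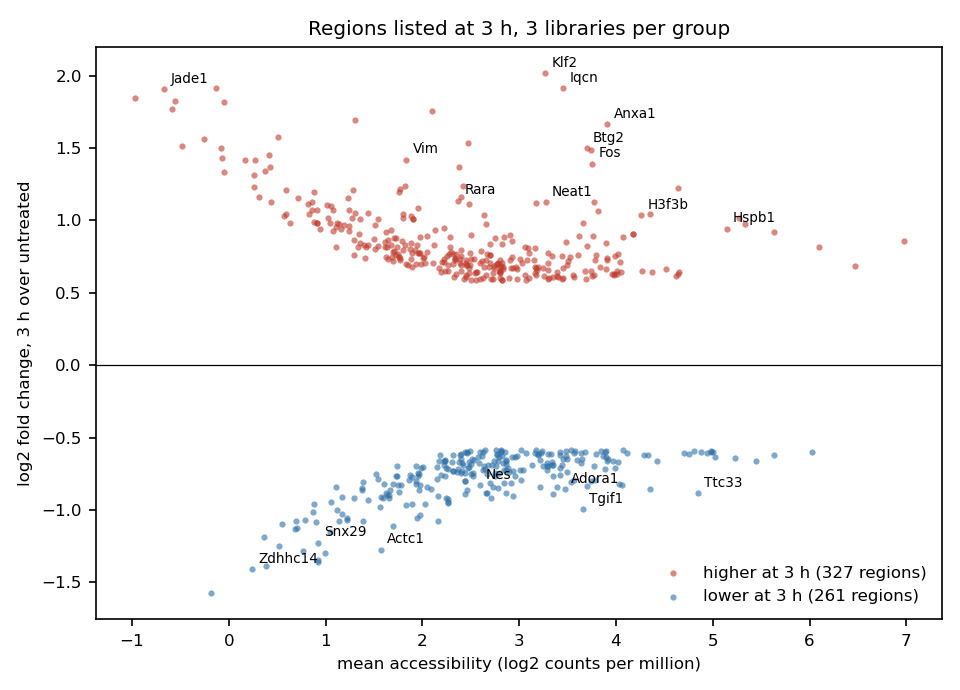
Listed log2 fold change of 3 h over untreated against the mean accessibility of both groups, in log2 CPM, 1 point per region, with some genes labelled. The 327 higher regions reach 2.02 at Klf2 and the 261 lower ones -1.57, and the empty band around 0 and the curved inner edge come from the limits on fold and p by which the list was made.

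A gene was assigned to 449 of the regions, either as the list itself names it or as the nearest gene within 5 kb, protein-coding genes being taken first. This gave 440 genes, 364 of them among the 21887 protein-coding genes of RefSeq. A higher region was assigned to 260 protein-coding genes, 1.19% of all, and a lower region to 108, 0.493%, with 4 genes in both groups. A region in either direction was assigned to 1.66% of protein-coding genes. The share of a gene family with a listed region is read below against these percentages. The number of tested regions near each gene is not known, and families of long genes or of genes with much open chromatin would be listed more often for that reason alone.

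The sequences of 5 promoters are shown as examples and do not stand for all promoters in the list. Each run is RefSeq's sequence from 250 bases before to 50 after the gene's start, on GRCm38.p6, 5′ to 3′ on the strand of the gene. Capitals mark the GC box (GGGCGG), the CCAAT box (CCAAT), the TATA box (TATAAA) and the CArG box, which serum response factor binds, each on either strand.
Ass1 (chr2:31470020-31470319, plus strand, higher): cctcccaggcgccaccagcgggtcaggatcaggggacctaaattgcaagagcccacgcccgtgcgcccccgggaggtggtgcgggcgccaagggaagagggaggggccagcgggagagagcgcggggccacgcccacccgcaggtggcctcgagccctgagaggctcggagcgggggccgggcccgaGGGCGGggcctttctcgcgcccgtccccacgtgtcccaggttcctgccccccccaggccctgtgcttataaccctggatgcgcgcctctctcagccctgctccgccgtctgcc
Rps6ka1 (chr4:133887748-133888047, minus strand, higher): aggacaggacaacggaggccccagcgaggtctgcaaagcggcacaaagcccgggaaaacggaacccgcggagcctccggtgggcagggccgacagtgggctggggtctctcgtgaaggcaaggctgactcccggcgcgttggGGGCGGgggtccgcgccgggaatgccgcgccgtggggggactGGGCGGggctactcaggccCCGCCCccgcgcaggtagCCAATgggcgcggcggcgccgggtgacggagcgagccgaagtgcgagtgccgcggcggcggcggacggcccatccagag
Tspan9 (chr6:128143529-128143828, minus strand, higher): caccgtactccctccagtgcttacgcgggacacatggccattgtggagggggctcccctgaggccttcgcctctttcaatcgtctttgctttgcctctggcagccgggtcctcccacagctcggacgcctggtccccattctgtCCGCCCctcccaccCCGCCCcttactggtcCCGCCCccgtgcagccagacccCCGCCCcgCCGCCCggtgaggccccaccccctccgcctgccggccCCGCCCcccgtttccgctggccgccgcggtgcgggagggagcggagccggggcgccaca
Actc1 (chr2:114052826-114053125, minus strand, lower): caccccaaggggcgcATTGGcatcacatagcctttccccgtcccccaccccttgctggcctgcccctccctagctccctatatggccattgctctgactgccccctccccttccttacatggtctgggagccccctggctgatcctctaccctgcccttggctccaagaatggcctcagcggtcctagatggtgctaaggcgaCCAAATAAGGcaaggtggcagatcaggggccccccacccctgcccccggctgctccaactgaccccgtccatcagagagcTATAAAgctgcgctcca
Tcirg1 (chr19:3905181-3905480, minus strand, lower): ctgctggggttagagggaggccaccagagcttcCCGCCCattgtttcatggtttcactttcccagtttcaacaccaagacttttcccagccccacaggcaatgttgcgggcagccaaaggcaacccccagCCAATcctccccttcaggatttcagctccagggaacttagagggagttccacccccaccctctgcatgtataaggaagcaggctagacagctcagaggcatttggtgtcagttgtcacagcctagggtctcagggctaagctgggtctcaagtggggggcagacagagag

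The Ass1, Rps6ka1 and Tspan9 windows hold 1, 3 and 6 GC boxes, and 27, 39 and 28 CpG dinucleotides. The Actc1 and Tcirg1 windows hold 0 and 1 GC box, and 7 and 2 CpG dinucleotides, so Tcirg1 has as many GC boxes as Ass1. The 3 higher examples are rich in CpG for the list, where windows at higher regions had a median of 14.5. Higher windows with few CpG were listed too, as Gpha2 with 2 CpG and 1 GC box and Cfap97d2 with 2 CpG and 0 GC boxes. Ass1 encodes argininosuccinate synthase, the urea cycle enzyme that joins citrulline to aspartate, and the region over its promoter was listed at 0.85 ± 0.20 in the authors' deposited table (approximate SE; by edgeR, adjusted p = 0.713). Rps6ka1 encodes the kinase RSK1, which acts below ERK, and stood at 0.82 ± 0.22 in the authors' deposited table (by edgeR, adjusted p = 0.921). Tspan9, a tetraspanin gene, was listed at 0.71 ± 0.17 in the authors' deposited table (by edgeR, adjusted p = 0.726). Actc1 encodes cardiac alpha-actin, which is also made in young skeletal myotubes. The region over its promoter was listed at -1.27 ± 0.31 in the authors' deposited table (by edgeR, adjusted p = 0.718), and its window is the one of the 5 that holds a CArG box and a TATA box. Tcirg1, which encodes a subunit of the proton pump of lysosomes, was listed at -0.65 ± 0.16 in the authors' deposited table (by edgeR, adjusted p = 0.713).

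Over the whole list, 34 windows of the promoter table overlapped a higher region and 5 a lower one, after windows of a gene that start within 50 bases of each other were counted once. The 34 windows lie over 30 regions, since a region with starts on both strands, as at Pde4a, counts once for each. The median GC content was 61.0% in the 34 windows (quartiles 54.2 and 73.3) and 53.0% in all 31673 windows (45.7 and 61.7). The median number of CpG dinucleotides was 14.5 and 7. In the 5 windows at lower regions the median GC content was 56.3% and the median CpG number 2, a GC box stood in 2 (40%), a KLF site in 3 (60%) and the NF-kB pattern in 4 (80%), shares that so few windows leave very uncertain. All 31673 windows were counted whether or not their promoters were among the tested regions. How open promoters at large would compare is therefore not known, and shares of 34 windows are uncertain too. A GC box stood in 21 of the 34 windows (61.8%) against 35.8% of all windows, and TEAD's GGAATG in 23.5% against 14.7%. The CRE (TGACGTCA) stood in none of the 34 and in 1.79% of all windows, and the AP-1 site (TGANTCA) in 2 of the 34 (5.88%) and 7.86% of all windows. The CCAAT box stood in 32.4% against 37.3% and the TATA box in 8.82% against 13.7%. A KLF site (CCACCC) stood in 41.2% and 31.5%, an ETS core (CCGGAA) in 8.82% and 14.9%, the E-boxes CACGTG and CAGCTG in 5.88% and 11.8% against 7.11% and 16.4%, and the HIF core (ACGTG) in 8.82% and 19.5%. The MEF2 site (CTANNNNTAG) stood in 5.88% and 3.66%, the NRF1 site (GCGCANGCGC) in 5.88% and 4.59%, the NF-kB pattern (GGGNNNNNCC) in 79.4% and 50.8%, the antioxidant response core (TGANNNNGC) in 44.1% and 41.4%, the CArG box in 2.94% and 1.58%, and the CARE site (TGATGNAA) in 0% and 3.93%. All motifs were searched on both strands, and the MEF2, NRF1, NF-kB and antioxidant patterns are loose. The CACGTG E-box contains the HIF core, and the NF-kB pattern can overlap a GC box, so the shares are not independent of each other.

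Higher and lower regions lay in different places. Inside the body of a protein-coding gene lay 58.1% of higher regions (52.6 to 63.5) and 36.8% of lower regions (30.9 to 42.9). More than 5 kb from any protein-coding gene lay 16.2% of higher (12.4 to 20.7) and 57.5% of lower regions (51.2 to 63.5). The median distance from a region's midpoint to the nearest start of a protein-coding gene was 10509 bp for higher and 66732 bp for lower regions, and 10.7% against 1.98% lay within 1 kb of one. No position is known for the tested regions outside the list, so these shares compare the list with itself.

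**Figure D2:**
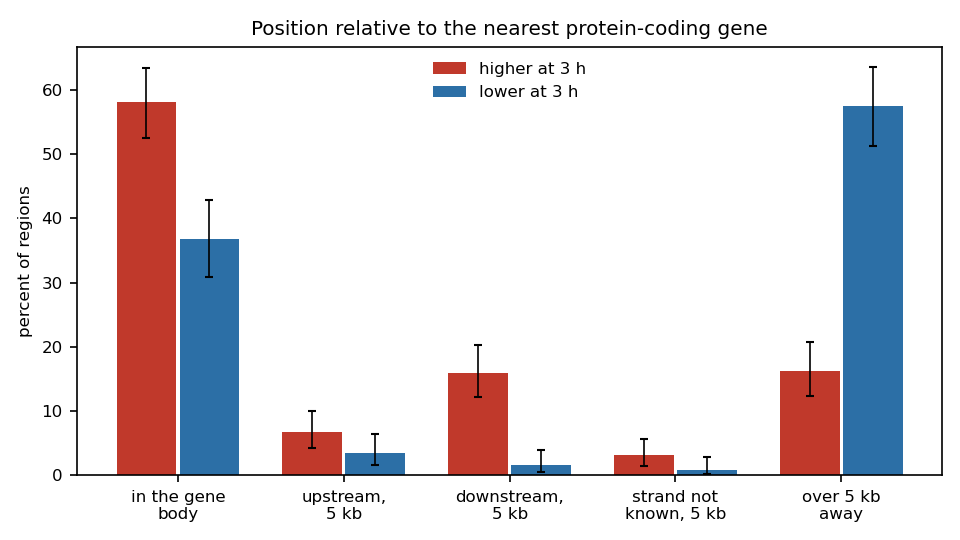
Percent of the 327 higher and 261 lower regions by position relative to the nearest protein-coding gene, with 95% Clopper-Pearson intervals for counting error. Downstream of the gene lay 15.9% of higher and 1.53% of lower regions, and more than 5 kb away 16.2% and 57.5%.

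The flank downstream of a gene, past its end, held 52 higher regions (15.9%, 12.1 to 20.3) and 4 lower ones (1.53%, 0.419 to 3.88). The upstream flank held 22 (6.73%) and 9 (3.45%), both flanks reaching 5 kb. This split by strand was made after the values had been seen. Of the 52 regions, 42 carried no promoter or upstream annotation in the list and 10 did. Whether neighbouring genes contribute to the count was not tested. In the list of 24 h against untreated, which shares the untreated libraries, the downstream flank held 4.48% of 67 higher regions (0.933 to 12.5). Of the 83 lower regions there it held 1.20% (0.0305 to 6.53). In the list of 24 h against 3 h, which shares the 3 h libraries, the downstream flank held 3.61% (2.35 to 5.28) and 3.91% (2.46 to 5.86). The list of 24 h against untreated was limited by an edgeR adjusted p below 0.05 and the 3 h list by a raw p. The shares are therefore given as listed and not compared.

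Immediate early genes, whose transcription needs no new protein and follows a stimulus at once, account for 12 of the 52. The other 40 regions lay downstream of 33 genes and had a median log2 fold change of 0.88 in the authors' deposited table, 19 of them at least 2-fold. The median of higher regions elsewhere was 0.76 in the authors' deposited table. These sites lay 17 to 4866 bp past the end of the gene, the median of the 52 being 1778 bp.

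**Figure D3:**
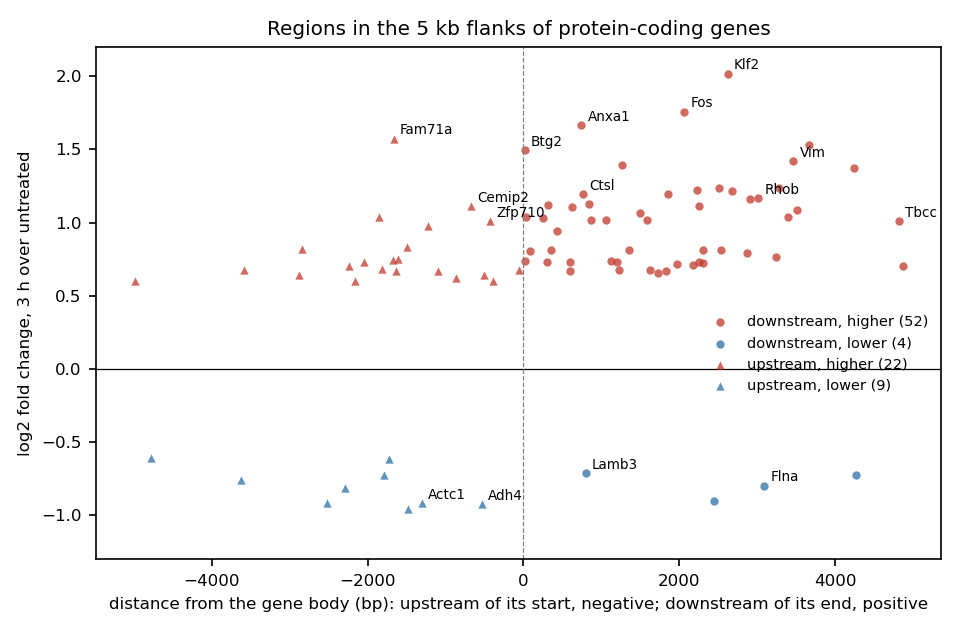
Listed log2 fold change of regions within 5 kb outside a protein-coding gene, against the distance in bp from the gene's start (triangles, plotted as negative) or from its end (circles, positive). The 52 higher regions past a gene's end reach 2.02 at Klf2, and 4 lower ones lie between -0.71 and -0.90.

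H3f3b encodes the replication-independent histone H3.3 and was the gene with the most listed regions. Its 4 higher regions stood in a row between 322 and 3399 bp past its end (chr11:116017814-116021639), with log2 fold changes from 1.02 to 1.22 in the authors' deposited table (by edgeR, adjusted p from 0.338 to 0.961). Anxa1 encodes annexin A1, a calcium-dependent membrane-binding protein that also acts as an anti-inflammatory mediator. Its regions 248 and 742 bp past the end had log2 fold changes of 1.03 ± 0.31 and 1.67 ± 0.32 in the authors' deposited table (by edgeR, adjusted p = 0.9999 and 0.338). The list itself names a long noncoding transcript there, 1500015L24Rik.

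Hspb1, the small heat shock protein HSP27, had regions 433 and 3510 bp past its end (0.94 ± 0.23 and 1.08 ± 0.30, by edgeR, adjusted p = 0.727 and 0.961, authors' deposited table). A region 33 bp past the peroxiredoxin gene Prdx2 was listed at 1.04 ± 0.20 in the authors' deposited table (by edgeR, adjusted p = 0.338), and it also lay 1427 bp from the AP-1 gene Junb. The list names the noncoding gene Gm15441 for the next region. Txnip, the nearest protein-coding gene, which encodes an inhibitor of thioredoxin and of glucose uptake, stood at 1.20 ± 0.29, 1860 bp past its end, in the authors' deposited table (by edgeR, adjusted p = 0.713). The intermediate filament gene Vim had 1.42 ± 0.35 at 3465 bp and the tubulin gene Tuba1a 1.24 ± 0.32 at 2510 bp in the authors' deposited table (by edgeR, adjusted p = 0.737 and 0.880). For the Tuba1a region the list names Tuba1b, a near-identical neighbour whose RefSeq body is more than 5 kb away.

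Signalling genes with a region past their end included Sgk1, a kinase gene induced by glucocorticoids and osmotic stress (0.73 ± 0.19 at 304 bp), and the small GTPase gene Rhob (1.16 ± 0.30 at 3014 bp), in the authors' deposited table (by edgeR, adjusted p = 0.880 for both). The kinase genes Pim1 (0.67 ± 0.18 at 1829 bp) and Pim3 (0.65 ± 0.20 at 1727 bp) were both listed in the authors' deposited table (by edgeR, adjusted p = 0.939 and 0.9999). Ccn1, a matrix-associated signalling protein and immediate early gene, had 0.81 ± 0.20 at 357 bp in the authors' deposited table (by edgeR, adjusted p = 0.727), at a strongly accessible region of mean log2 CPM 6.10. The syndecan gene Sdc4 (1.16 ± 0.37 at 2907 bp) lay at a weak region of mean log2 CPM 0.31 in the authors' deposited table (by edgeR, adjusted p = 0.9999). The 4 lower regions past a gene's end stood at Flna, the actin crosslinker filamin A (-0.80), Lamb3, a laminin chain (-0.71), Cdh15, M-cadherin of myoblasts (-0.90), and Cep152, a centriole protein (-0.72), in the authors' deposited table (by edgeR, adjusted p from 0.939 to 0.9999). The Cdh15 region overlapped the promoter window of the predicted gene Gm39273. Cdh15 was the 1 of 4 myoblast markers with a listed region, against 0 of 8 myotube and 0 of 4 fibroblast markers. Their absence says only that no region assigned to them passed the list's limits.

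The nuclear long noncoding RNA genes Neat1, which scaffolds paraspeckles, and Malat1 lie side by side on chromosome 19. Neat1 was assigned 3 higher regions, with log2 fold changes of 1.13 ± 0.20, 0.90 ± 0.25 and 0.74 ± 0.21 in the authors' deposited table (by edgeR, adjusted p = 0.289, 0.961 and 0.996). The region within 5 kb of Malat1 was listed at 0.86 ± 0.21 in the authors' deposited table (by edgeR, adjusted p = 0.759), and its mean log2 CPM of 6.97 was the highest of any listed region. Snhg16, which hosts the small nucleolar RNA Snord1a, had 0.88 ± 0.24 in the authors' deposited table (by edgeR, adjusted p = 0.961). Noncoding and unnamed loci as a whole gave 75 genes of 26624 (0.282%), 34 with a higher and 41 with a lower region. Protein-coding genes gave 1.66%. Apart from genes named by the list, a noncoding gene was assigned only where no protein-coding gene lay within 5 kb. The count and its split by direction depend on that rule, so they are no result about noncoding genes.

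Transcription factor families are set against the whole list, in which 260 protein-coding genes had a higher and 108 a lower region. Among the immediate early genes, 13 of 40 were assigned a region (32.5%, against 1.19% of all protein-coding genes with a higher one), all 20 regions higher, with a median log2 fold change of 1.14 in the authors' deposited table. Counting any region within 5 kb adds Junb and Jund, for 15 genes and 24 regions. The families were drawn up with earlier results of these data known. Nuclear receptor genes gave 4 of 49 (8.16%), all higher. They were Rara (1.14 ± 0.21), Nr2f1 (0.84 ± 0.19), Nr4a1 (0.76 ± 0.17), also an immediate early gene, and Rora (0.62 ± 0.20) in the authors' deposited table (by edgeR, adjusted p from 0.338 to 0.9999). Of the KLF and SP factors 3 of 26 (11.5%) had regions, Klf2 and Klf4 on the immediate early list and Klf12 (0.63 ± 0.16, by edgeR, adjusted p = 0.880, authors' deposited table).

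Forkhead, ETS, bZIP, NF-kB and related factors gave 9 of 244 genes (3.69%), 8 higher and 1 lower. Among the higher ones were Foxa1 (0.76), Ebf4 (0.97), Atf3 (1.21), a factor of the integrated stress response, Tbx2 (0.75) and E2f6 (1.02) in the authors' deposited table (by edgeR, adjusted p from 0.678 to 0.939). The lower one was Rela, the p65 subunit of NF-kB, with -0.61 ± 0.17 at a region 4781 bp upstream in the authors' deposited table (by edgeR, adjusted p = 0.959). Homeobox genes gave 2 of 166 (1.20%), the TGF-beta corepressor gene Tgif1 (-0.99 ± 0.18) and Gbx1 (1.13 ± 0.35) in the authors' deposited table (by edgeR, adjusted p = 0.338 and 0.9999). None of the 82 basic helix-loop-helix genes, the family of the myogenic factors, was assigned a region, against 1.66% of all protein-coding genes. At that share few of 82 genes would be listed, so the count is no result about these factors. Other zinc finger genes gave 7 of 522 (1.34%), 5 higher, among them Zfp710 (1.01 ± 0.22) and Zfhx3 (0.73 ± 0.17) in the authors' deposited table (by edgeR, adjusted p = 0.575 and 0.713).

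Chromatin genes gave 9 of 305 (2.95%), 7 higher and 2 lower. Besides H3f3b the higher ones included the corepressor gene Rcor2 (0.70 ± 0.19 and 0.60), Mllt11, Chd9, Jade1 and Tet3, a DNA demethylase gene with 0.88 ± 0.25 and 0.62 in the authors' deposited table (by edgeR, adjusted p from 0.839 to 0.9999). The lower ones were Hdac4 (-0.61 ± 0.18), a class IIa histone deacetylase gene, and Arid5b (-0.66 ± 0.20) in the authors' deposited table (by edgeR, adjusted p = 0.9999 for both). Ell, a transcription elongation factor gene, had 2 higher regions, of 0.86 ± 0.18 and 0.60 in the authors' deposited table (by edgeR, adjusted p = 0.399 and 0.996).

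**Figure D4:**
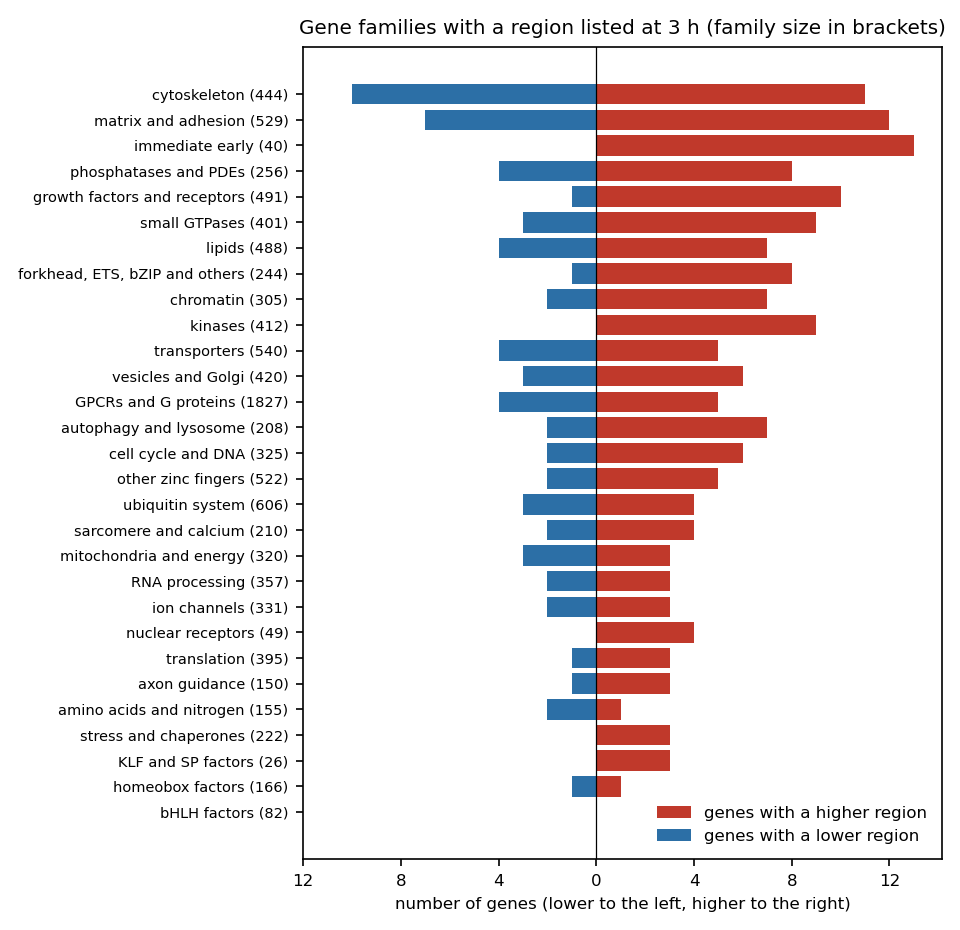
Number of genes in each of 29 families of named genes, noncoding loci left out, with a higher region (to the right) or a lower region (to the left) at 3 h, and the family's size in brackets. Families were matched by symbol. Immediate early genes (13), genes matched as kinases or adaptors (9), nuclear receptors (4), KLF and SP factors (3) and stress genes (3) had higher regions alone. Cytoskeletal genes were divided, 11 and 10. Over all protein-coding genes 260 had a higher and 108 a lower region.

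Genes matched by symbol as kinases or their adaptors gave 9 of 412 (2.18%), all higher. The match is incomplete, since it leaves out Pim1, Pim3 and Mknk2, whose regions were also higher. Of the 364 protein-coding genes with a region 260 had a higher one, so few lower genes would stand in any small family. The 9 matched genes included Dyrk1a (0.95 ± 0.19), a kinase of the nucleus, and Mapk8ip1 (0.89 ± 0.18), which encodes a scaffold of the JNK pathway, in the authors' deposited table (by edgeR, adjusted p = 0.383 and 0.398). Ptk2b, a calcium-regulated relative of focal adhesion kinase, stood at 0.77 ± 0.21 in the authors' deposited table (by edgeR, adjusted p = 0.959). Phosphatases and phosphodiesterases gave 12 of 256 (4.69%), 8 higher and 4 lower. Among the enzymes that break down cyclic nucleotides, the Pde4a promoter was higher (0.89 ± 0.26) and regions in Pde10a (-0.74 ± 0.18) and Pde1a (-0.66 ± 0.18) were lower in the authors' deposited table (by edgeR, adjusted p = 0.996, 0.746 and 0.939). Dusp1, an immediate early phosphatase gene that switches off MAP kinases, had 1.24 ± 0.26 and 0.82 in the authors' deposited table (by edgeR, adjusted p = 0.425 and 0.959).

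Growth factors, cytokines and their receptors gave 11 of 491 (2.24%), 10 higher and 1 lower. The ligand genes Lif (0.71), a cytokine made by muscle, and Pdgfc (0.62), the receptor genes Il15ra (0.64) and Fgfrl1 (0.74), the insulin receptor substrate gene Irs1 (0.99) and the negative regulators Lrig1 (0.67), Spred3 (0.78) and Ski (0.75) were higher in the authors' deposited table (by edgeR, adjusted p from 0.718 to 0.9999). A region at the cytokine gene Il21 was lower (-0.82 ± 0.23, by edgeR, adjusted p = 0.979, authors' deposited table). G protein-coupled receptors and G proteins gave 9 of 1827 (0.493%), 5 higher and 4 lower. Adora1, the adenosine A1 receptor gene, had 2 neighbouring lower regions, of -0.85 ± 0.20 and -1.11 ± 0.28 in the authors' deposited table (by edgeR, adjusted p = 0.713 and 0.878). Gng7, a G protein gamma subunit gene, had 2 higher ones, of 0.93 ± 0.24 and 0.67 in the authors' deposited table (by edgeR, adjusted p = 0.880 and 0.965).

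Small GTPases and their regulators gave 11 of 401 (2.74%), 9 with a higher and 3 with a lower region. Higher were Elmo2 (0.73), Rhob and Arl16 (0.89), and Arl6ip5 was lower (-0.85 ± 0.18) in the authors' deposited table (by edgeR, adjusted p from 0.399 to 0.880). Cytoskeletal genes gave 21 of 444 (4.73%) and were evenly divided. The 11 higher ones included the adhesion adaptors Bcar1 (0.91 ± 0.18) and Pxn (0.70 ± 0.19), the microtubule gene Tppp3 (0.85 ± 0.17), Lasp1 (0.78) and Vim in the authors' deposited table (by edgeR, adjusted p from 0.341 to 0.979). Among the 10 lower ones were Actc1, the intermediate filament genes Nes (-0.83 ± 0.18), which marks immature muscle, and Iffo1 (-0.82 ± 0.18), the linker genes Syne1 (-0.60) and Dst (-0.59), and Flna, Cap2 (-0.72) and Pdlim4 (-0.64) in the authors' deposited table (by edgeR, adjusted p from 0.587 to 0.9999). The intermediate filament genes Vim and Nes thus had opposite signs.

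Sarcomere and calcium handling genes gave 6 of 210 (2.86%), 4 higher and 2 lower. Bin1, of the transverse tubules, had 0.72 ± 0.18 and 0.63 in the authors' deposited table (by edgeR, adjusted p = 0.827 and 0.9999). The laminin receptor gene Itga7 stood at 0.64 ± 0.19 in the authors' deposited table (by edgeR, adjusted p = 0.9999). Actc1 had 2 lower regions, the second 1303 bp upstream with -0.91 ± 0.25, and the M-band gene Myom1 had -0.66 ± 0.19 in the authors' deposited table (by edgeR, adjusted p = 0.939 and 0.990). Tmem182, a membrane protein gene of muscle, also had 2 lower regions, of -0.66 ± 0.18 and -0.60 in the authors' deposited table (by edgeR, adjusted p = 0.939 and 0.9999).

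Matrix and adhesion genes gave 19 of 529 (3.59%), 12 higher and 7 lower. The laminin chains were divided, with 2 higher regions in Lama5 (0.67 ± 0.18 and 0.73 ± 0.22) and lower ones at Lama3 (-0.69 ± 0.21), Lama4 (-0.62 ± 0.20) and Lamb3 in the authors' deposited table (by edgeR, adjusted p from 0.939 to 0.9999). Both tolloid-like protease genes were lower, Tll1 (-0.67 ± 0.21) and Tll2 at 2 regions (-1.28 ± 0.38 and -0.66 ± 0.21), in the authors' deposited table (by edgeR, adjusted p = 0.9999 for each). Col22a1, a collagen gene of muscle-tendon junctions, was lower (-0.89 ± 0.26, by edgeR, adjusted p = 0.996, authors' deposited table). Higher were Cemip2, a hyaluronidase of the cell surface (1.11 ± 0.21), Postn (0.85), Sparc (0.60), and genes of heparan sulfate and its carriers, Hs6st1 (0.79), Ndst1 (0.83), Gpc6 (0.92) and Sdc4, in the authors' deposited table (by edgeR, adjusted p from 0.338 to 0.9999).

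Genes of proteolysis were listed in both directions. The ubiquitin system gave 7 of 606 (1.16%), 4 higher and 3 lower. Fzr1, an activator of the anaphase-promoting complex (0.88 ± 0.17), and Klhl26 (0.67) were higher and Fbxl13 (-0.75 ± 0.20), Klhl3 (-0.72) and Ube2d3 (-0.69) lower in the authors' deposited table (by edgeR, adjusted p from 0.345 to 0.9999). The Fzr1 region is shared with the lysosomal transporter gene Mfsd12. Autophagy and lysosome genes gave 9 of 208 (4.33%), 7 higher and 2 lower. The 3 cathepsin genes with a region, Ctsl (1.20 ± 0.28), Ctsd (1.15 ± 0.33) and Ctsa (0.68 ± 0.22), were higher and the sorting nexin gene Snx29 lower (-1.22 ± 0.31) in the authors' deposited table (by edgeR, adjusted p from 0.713 to 0.9999). The Ctsl and Ctsd regions were weak, at mean log2 CPM of 0.88 and 0.72. Capn2, which encodes a calcium-activated protease, stood at 0.93 ± 0.29 in the authors' deposited table (by edgeR, adjusted p = 0.9999).

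Genes of ammonia and amino acid metabolism gave 3 of 155 (1.94%), near the 1.66% of all protein-coding genes with a listed region. Besides Ass1 these were Ddah1 (-0.68 ± 0.19), whose enzyme breaks down methylated arginines that inhibit nitric oxide synthase, and Dpysl4 (-1.02 ± 0.31), a dihydropyrimidinase-related gene, in the authors' deposited table (by edgeR, adjusted p = 0.990 and 0.9999). Genes matched by symbol as mitochondrial or energy genes gave 5 of 320 (1.56%), 3 with a higher and 3 with a lower region, Car9 with both. The higher ones included Ppargc1a (0.65 ± 0.18), the coactivator of mitochondrial biogenesis, and Ldhd (0.76 ± 0.18) in the authors' deposited table (by edgeR, adjusted p = 0.947 and 0.718). The lower ones besides Car9 were Slc2a13 (-0.80 ± 0.23), also counted among the transporters, and Car10 (-0.59 ± 0.18) in the authors' deposited table (by edgeR, adjusted p = 0.9999 for both). All of these lower genes were taken in by symbol alone, so they do not stand for mitochondrial or energy metabolism. Lipid genes gave 11 of 488 (2.25%), 7 higher and 4 lower. The palmitoyltransferase genes Zdhhc1 (0.73) and Zdhhc2 (0.62) were higher and Zdhhc14 (-1.41 ± 0.45) lower, and Gdpd5, a glycerophosphodiesterase gene, was higher (0.90 ± 0.17) in the authors' deposited table (by edgeR, adjusted p from 0.341 to 0.9999). Lower also were Cyp27a1 (-1.08 ± 0.32), a sterol hydroxylase gene, and Adh4 (-0.92 ± 0.21) in the authors' deposited table (by edgeR, adjusted p = 0.9999 and 0.690).

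Transporter genes gave 9 of 540 (1.67%), 5 higher and 4 lower. Among them were the calcium pump gene Atp2b1 (0.77 ± 0.23) and the organic anion transporter gene Slco3a1 (-0.79 ± 0.16) in the authors' deposited table (by edgeR, adjusted p = 0.9999 and 0.399). Ion channel genes gave 5 of 331 (1.51%), 3 higher and 2 lower. RNA processing genes gave 5 of 357 (1.40%), with the splicing factor genes Mbnl2 higher (0.76 ± 0.23) and Rbfox2 lower (-0.68 ± 0.19) in the authors' deposited table (by edgeR, adjusted p = 0.9999 and 0.996). Translation genes gave 4 of 395 (1.01%), 3 higher. Among them was Mknk2 (0.68 ± 0.16 and 0.81), whose kinase phosphorylates the cap-binding factor eIF4E, in the authors' deposited table (by edgeR, adjusted p = 0.678 and 0.880). Secretory pathway genes gave 9 of 420 (2.14%), 6 higher and 3 lower, among them Anxa2 (1.07 ± 0.28) and Dnm3 (-0.75 ± 0.17) in the authors' deposited table (by edgeR, adjusted p = 0.937 and 0.678). Axon guidance genes gave 4 of 150 (2.67%), 3 higher, and lower was Dscam (-1.18 ± 0.37, by edgeR, adjusted p = 0.9999, authors' deposited table).

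Cell cycle, DNA repair and apoptosis genes gave 7 of 325 (2.15%), 6 with a higher and 2 with a lower region. The antiproliferative gene Btg2 is also on the immediate early list, and the cyclin gene Ccnd2 (0.68 ± 0.21) and the apoptosis genes Bcl2l11 (0.70 ± 0.23) and Apaf1 (0.68 ± 0.19) were higher while Rad51b, a recombination gene, was lower (-0.89 ± 0.18) in the authors' deposited table (by edgeR, adjusted p from 0.398 to 0.9999). The stress and chaperone family gave 3 of 222, all higher, namely Hspb1 and Prdx2 as given above and Atf3, whose second region stood at 1.15 in the authors' deposited table. That is 1.35% of the family.

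Regions of a gene mostly pointed the same way. Of the 38 genes with at least 2 listed regions, 27 had higher ones alone, 7 lower ones alone and 4 both. Because genes that overlap share regions and neighbouring regions are not independent measurements, this is a description. Within 10 kb of each other lay 53 regions in 25 groups, of which 18 were all higher, 6 all lower and 1 mixed. By chromosome, 29 of the 36 regions on chromosome 8 were higher (80.6%) and 3 of the 11 on chromosome 16 (27.3%), and the Klf2, Junb, Jund and Ier2 regions are among those on chromosome 8.

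Regions with no gene within 5 kb were mostly lower ones, 110 against 29. The lower ones lay a median of 58039 bp from the nearest protein-coding gene, and 34 lay more than 100 kb away. The lower ones with the smallest p had log2 fold changes of -0.92 ± 0.18 (nearest gene Exoc2, 212621 bp away), -0.83 ± 0.17 (Ptger4, 203630 bp) and -1.34 ± 0.29 (Tac1, 18451 bp) in the authors' deposited table (by edgeR, adjusted p = 0.383, 0.399 and 0.564). For the higher ones the values were 0.93 ± 0.23 (A4galt, 16984 bp), 0.78 ± 0.20 (C1qtnf3, 53431 bp) and 0.77 ± 0.20 (Noct, 67039 bp) in the authors' deposited table (by edgeR, adjusted p = 0.744, 0.827 and 0.880). Which gene such a region acts on, if any, is not known from the list.

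Of the 588 regions 30 also stood in the list of 24 h against untreated, which holds regions with an edgeR adjusted p below 0.05. The 2 comparisons share the untreated libraries, so their agreement in sign is not independent. The 24 h list has the stricter limit, so regions in both lists had to have large values at 24 h, and the sizes at the 2 times are given as listed and not compared. The median absolute log2 fold change of the 30 was 0.77 at 3 h and 1.15 at 24 h in the authors' deposited table. Klf2 had 2.02 and 1.37, and Jade1, a gene of a histone acetyltransferase complex, had 1.90 and 2.64 at a weak region, in the authors' deposited table. An intron of Plekha6 had -0.59 and -1.46, Lrig1 had 0.67 and 1.16, and Tll2 had -0.66 and -1.25 in the authors' deposited table. The regions in all 3 lists were that of Plekha6, one at the noncoding gene Gm32328 (0.88 and 1.53) and one 139394 bp from the TGF-beta receptor gene Tgfbr2 (-0.74 and -1.41) in the authors' deposited table. At 24 h against 3 h they stood at -0.87, 0.65 and -0.67 in the authors' deposited table.

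The list of 24 h against 3 h held 54 of the 588 regions, 51 of them with the opposite sign there. The 3 h libraries enter the 2 comparisons on opposite sides, so this count is no independent result. The Egr1 region 2723 bp from the gene had 1.48 at 3 h and -1.42 at 24 h against 3 h in the authors' deposited table. The Btg2 region 836 bp past the gene's end had 1.13 and -1.01 (by edgeR, adjusted p at 24 h against 3 h = 0.257 for Egr1 and 0.278 for Btg2, authors' deposited table). The promoter region of Actc1 had -1.27 and 1.13, and its upstream region -0.91 and 0.89, in the authors' deposited table (by edgeR, adjusted p at 24 h against 3 h = 0.425 and 0.436).

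**Figure D5:**
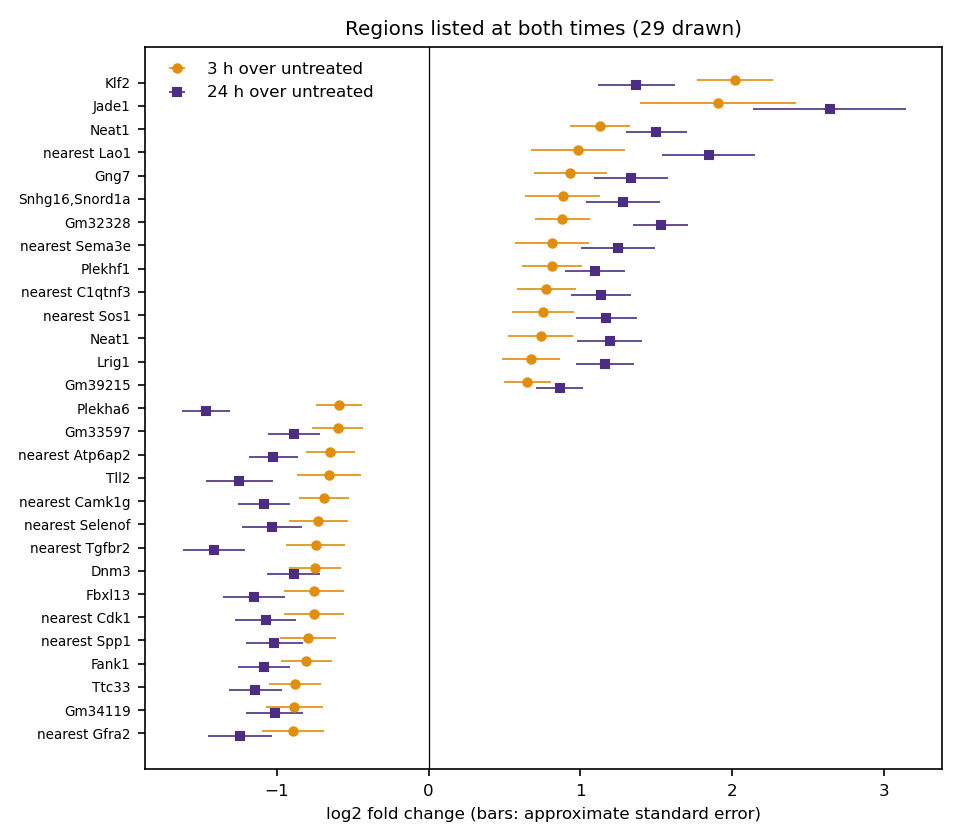
Listed log2 fold changes over the shared untreated libraries at 3 h (circles) and 24 h (squares) for regions listed at both times, with approximate standard errors as bars. Of the 30 regions 29 are drawn. The 24 h list required an adjusted p below 0.05, which selects large values at 24 h, and the Klf2 region stands at 2.02 and 1.37.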

How the data were processed

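Group membership follows the labels. The submitters' processing notes name build mm10 and these tools: edgeR, MultiQC, MACS2, bedtools, SAMtools, Picard 2.20.2, Bowtie2 2.3.4.1, cutadapt 1.15, Trim Galore 0.4.5 and FastQC. Their settings, and whether reads were shifted or libraries pooled for peak calling, are not known here. The authors deposited, for each region, the log2 fold change, the mean log2 CPM, the p-value with its Benjamini-Hochberg adjusted value, and an F statistic, which is a score without fixed range.

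Lines were collapsed to 1 per region. The approximate standard error divides the log2 fold change by the root of F. Of 393 region and symbol pairs, 16 were dropped because the RefSeq gene lay over 5 kb away, a step added after seeing the data. Of 366 gene symbols 364 matched RefSeq. Families were matched by symbol. Recovery of the number tested was tested on simulated data. Members and lists were chosen with earlier results of these data known.

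The rule for named genes took, per direction, the smallest p (10 genes; 8 at promoters), the 5 largest changes at mean log2 CPM of at least 1, up to 5 genes a family, genes with several regions, regions in all lists and the 3 regions with the smallest p and no gene. Other genes were named after their values were seen, and the text leaves out some that the rule gives. Alternatives varied limits, strand and symbols. Software was matplotlib 3.10.9, scipy 1.17.1, pandas 2.3.3 and numpy 2.4.6 under Python 3.11.15.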

Additional observations from a re-analysis of the deposited data

How the results depend on the processing

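Of the values recomputed, 34 stayed near those reported, meaning within 1.5 times for counts and within the 95% interval or the quartiles for shares and medians, and 11 did not. At a raw p below 0.001 the list held 99 higher and 58 lower regions and 91 and 23 protein-coding genes. Promoters then held 29.3% of higher regions, against 24.2% in the whole list. CpG islands held 0% of lower regions, against 1 region (0.383%) in the whole list. The downstream flank held 27.3% of higher and 0% of lower regions. With at least a 2-fold change the list held 76 and 29 regions. On the strand of the gene alone, the GC box stood in 38.2% of windows at higher regions and 23.5% of all windows. Keeping every symbol of the list gave 262 and 111 protein-coding genes. The alternatives on the downstream flank and on symbols were chosen after seeing the data. No paired analysis was possible because the deposited tables give results per comparison, not values of single libraries. Leaving out a replicate, another normalization and a filter on counts could not be run for the same reason. Depth per library is unknown, and weak regions needed larger changes to be listed.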
